A study of Mus musculus with 24 samples.

Results

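The genes described here are 46 genes of the lysosome and of autophagy, taken as a named list of rows from a gene count table of 24421 rows. They comprise 20 lysosomal genes (11 hydrolases, 6 cofactor and membrane protein genes and 3 subunit genes of the proton pump), 23 genes of the autophagy machinery and 3 genes of transcription factors that bind lysosomal gene promoters. The donors of the marrow were C57BL/6 males, of which 4 were young at 12 weeks and 4 were aged at 107 weeks, with no treatment named for either age, and the assay was bulk RNA-seq. Marrow was enriched for CD117 (Kit) and sorted for lineage-negative, Sca1-positive, Kit-positive cells. The gates then separated CD150+ CD48- cells, the long-term hematopoietic stem cells (LT-HSC), from short-term hematopoietic stem cells (ST-HSC, CD150- CD48-) and from multipotent progenitors (MPP, CD150- CD48+), with 4 libraries in each of the 6 groups of age and population. The groups are therefore defined by surface gates rather than by function, and the labels do not say which library came from which mouse. The p-values below judge differences between groups against the spread between libraries. With 4 mice at each age, libraries of different populations can come from the same mouse. That spread therefore need not be the spread between independent mice.

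Lysosomes are acidified by a proton-pumping V-ATPase and hold hydrolases that break down protein, glycan and lipid. Autophagy delivers cytoplasm and organelles to them: the ULK kinase complex starts an autophagosome, a phosphatidylinositol 3-kinase complex and WIPI proteins mark its membrane, a conjugation system attaches Atg8 proteins (the LC3 and GABARAP families) to that membrane, and receptors such as p62 and NBR1 bring cargo. In blood stem cells, autophagy is known for removing active mitochondria and keeping the cells quiescent, and quiescent stem cells for large, slowly degrading lysosomes. TFEB, TFE3 and MITF are related factors that bind a promoter motif shared by many lysosomal genes.

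Library totals ran from 7307151 to 12946550 counts, and all 46 genes passed the filter on low counts that left 14205 genes for testing. The lowest count of any of the 46 in any library was 18. The labels were checked against gate markers. Slamf1, which encodes CD150, was at 23.0 to 88.4 CPM (a gene's counts relative to the TMM-adjusted size of its library) in LT-HSC and at no more than 1.93 CPM in ST-HSC or MPP. Cd48 was at 62.9 to 97.7 CPM in MPP, at 7.64 to 16.0 CPM in ST-HSC and at no more than 3.55 CPM in LT-HSC. Marker genes of other blood cells were not all at 0, although Hba-a1, Hba-a2, Hbb-bs, Hbb-bt and Cd3e were at 0 in every group. The 12 granulocyte markers took 0.0761% to 0.331% of counts in young and 0.151% to 0.553% in aged MPP, 0.252% to 0.319% in aged ST-HSC libraries 1 to 3 and 0.0173% in library 4, and 0.0987% in young LT-HSC library 1, against at most 0.0355% in every other library. The 6 megakaryocyte and platelet markers took 0.142% to 0.157% in aged LT-HSC, 0.0451% to 0.0732% in young LT-HSC and at most 0.0198% elsewhere. In aged MPP, 9 B and plasma cell markers together took 0.195% to 0.899% of counts, against 0.0109% to 0.0412% in young MPP. Most of this was Jchain, the joining chain of secreted antibody, at 2324, 3289, 1794 and 9061 CPM in aged MPP libraries 1 to 4. The 14 monocyte and macrophage markers were highest in library 4 of aged ST-HSC (0.0834%) and library 4 of aged MPP (0.0917%). An alternative taken from an earlier look at these data left out libraries 2 and 3 of aged ST-HSC and library 1 of young LT-HSC for their granule gene counts, but aged ST-HSC library 1 had the highest granulocyte marker share of its group. A further alternative, chosen after seeing these shares, therefore left out libraries 1, 2 and 3 of aged ST-HSC and library 1 of young LT-HSC, so that aged ST-HSC has library 4 alone, assumed to vary like the other groups.

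Lysosomal genes had more counts per length than autophagy genes. On the scale of CPM per kb of annotated exon, averaged over the 6 groups, the median was 25.9 for the 20 lysosomal genes, 12.3 for the 23 autophagy genes and 2.63 for the 3 factors. The highest levels per kb were those of Psap, the precursor of the saposins that present sphingolipids to hydrolases (212), Ctsd, the aspartic protease cathepsin D (142), Lamp1, a glycoprotein of the lysosomal membrane (62.7), and Atp6v0d1, a subunit of the membrane part of the V-ATPase (55.3). The highest autophagy genes on that scale were the Atg8 gene Gabarapl1 (53.9) and Sqstm1, which encodes the receptor p62 (47.0). Tfeb was the lowest of all 46 (1.54 CPM per kb).

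The promoter motif already known to be shared by many lysosomal genes occurred in many of those listed here. Its share therefore describes the list and is not an independent result. RefSeq promoter windows (build GRCm38.p6, 250 bases before to 50 after a start site) were found for 37 of the 46 genes. The palindrome CACGTG, the core bound by the TFEB family and by other basic helix-loop-helix factors, stood in a window of 10 of 17 lysosomal genes (58.8%), 4 of 17 autophagy genes (23.5%) and 0 of 3 factor genes. It stood in a window of 8.09% of all 27025 genes with one and of 11.4% of the tested genes with one. The longer palindrome TCACGTGA, every match of which also holds CACGTG, stood in 6 of 17 lysosomal genes (35.3%) and in 1 of 17 autophagy genes (5.88%), against 1.12% of all genes and 2.08% of tested genes. Both strands are covered because each motif is its own reverse complement. A match is a description of the letters in the window and does not show binding. The sites below are those with the longer motif, 1 per gene, shown because few promoters hold it. Capitals mark the motif, the sequence runs 5′ to 3′ on the gene's strand, and coordinates are GRCm38.p6:
Ctsa (chr2:164833749-164833778, plus strand): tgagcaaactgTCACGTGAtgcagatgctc
Ctsd (chr7:142387908-142387937, minus strand): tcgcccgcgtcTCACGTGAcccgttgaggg
Gla (chrX:134601182-134601211, minus strand): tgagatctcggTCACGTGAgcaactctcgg
Mcoln1 (chr8:3500462-3500491, plus strand): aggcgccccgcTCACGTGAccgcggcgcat
Atp6v1a (chr16:44139373-44139402, minus strand): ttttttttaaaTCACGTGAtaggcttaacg
Atp6v0d1 (chr8:105566050-105566079, minus strand): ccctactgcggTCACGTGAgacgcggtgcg
Atg3 (chr16:45158746-45158775, plus strand): ggagagtcgagTCACGTGAggccttaggtg
These genes did not all change together. Mcoln1, Atp6v1a and Atp6v0d1 were called higher in aged LT-HSC, Ctsa and Atp6v0d1 were called higher in aged MPP, and Ctsd, Gla and Atg3 were called in none of the 12 comparisons.

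The age comparison in LT-HSC asked which genes differed between aged and young libraries of the same gate. Of the 46 genes, 12 were higher and 1 was lower in aged LT-HSC (edgeR's quasi-likelihood test, Benjamini-Hochberg adjusted p under 0.05 over all 14205 genes). That is 26.1% higher and 2.17% lower, beside 9.98% higher and 8.87% lower among all tested genes. The higher genes were 7 of 20 lysosomal genes and 5 of 23 autophagy genes, and the lower gene was lysosomal. The median log2 change was 0.171 over the lysosomal genes, 0.096 over the autophagy genes and 0.002 over all tested genes. Without aged library 1 the autophagy median was 0.045, and without young library 3 it was 0.062. In bulk libraries, fewer cells of a type and less RNA per cell cannot be told apart. The megakaryocyte and platelet marker share was higher in every aged than in every young LT-HSC library (all 6 markers had counts, and most of the share was Vwf, at 286 to 463 CPM in young and 1184 to 1255 CPM in aged libraries). Of 8 T and NK cell markers, 7 were in the count table. Their share was 0.00112% to 0.00168% in young and 0.00682% to 0.0112% in aged LT-HSC, mostly Klrb1c, with Cd3e, Cd3g and Ncr1 at 0 at both ages. The markers of the populations themselves also differed by age. The 8 LT-HSC markers took 0.199% to 0.263% in young and 0.276% to 0.289% in aged LT-HSC. The 5 MPP markers (Cd48, Flt3, Cd34, Dntt and Satb1) took 0.0189% to 0.02965% in young and 0.0104% to 0.0117% in aged LT-HSC. Neither pair of ranges overlapped. The part of all these markers in the LT-HSC changes was not tested.

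The largest change of a membrane protein gene in LT-HSC was that of Lamp2 (mm10 chromosome X, 38401357 to 38456454), whose product lines the lysosome and is needed for its fusion with autophagosomes. Lamp2 was at 170.0, 145, 175 and 150.3 CPM in the 4 young LT-HSC libraries and at 248, 277, 243 and 256 CPM in the 4 aged ones. Every aged library was above every young one, and the log2 change was 0.68 (SE 0.115, adjusted p = 0.00012). Mcoln1 (chromosome 8, 3500457 to 3515232) encodes TRPML1, the calcium release channel of the lysosome. Its level was 73.4, 65.5, 61.5 and 81.6 CPM in young LT-HSC and 96.5, 90.7, 98.1 and 89.0 CPM in aged LT-HSC. The ranges did not overlap, with a log2 change of 0.41 (SE 0.085, adjusted p = 0.0011). Both calls held under all 17 alternatives tried for them.

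The other lysosomal genes that rose in aged LT-HSC were hydrolase and pump genes. Tpp1, which encodes the tripeptidyl peptidase of the lysosome, was at 139, 138, 135 and 161 CPM in young and 194, 183, 183 and 191 CPM in aged LT-HSC. Its groups were separate and the log2 change was 0.39 (SE 0.097, adjusted p = 0.0057). Atp6v1a, the catalytic subunit of the V-ATPase, was at 112, 88.6, 95.3 and 98.1 CPM in young and 128, 146, 123 and 122 CPM in aged LT-HSC, also without overlap. Its log2 change was 0.40 (SE 0.104, adjusted p = 0.0077), and the highest adjusted p over its alternatives, without aged library 2, rounded to 0.05 from below. Ctsl, the cysteine protease cathepsin L, was at 17.4, 19.7, 21.9 and 14.8 CPM in young and 20.3, 35.3, 30.6 and 30.9 CPM in aged LT-HSC. Aged library 1 lay within the young range and the other 3 lay above it, with a log2 change of 0.67 (SE 0.199, adjusted p = 0.018). Gaa, the acid alpha-glucosidase that degrades glycogen, changed by 0.35 (SE 0.107, adjusted p = 0.023) and Atp6v0d1 by 0.38 (SE 0.118, adjusted p = 0.026).

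A single lysosomal gene fell. Npc1 encodes the membrane transporter that carries cholesterol out of the lysosome. It was at 95.1, 102, 89.0 and 96.3 CPM in young LT-HSC and at 71.5, 74.1, 80.0 and 83.3 CPM in aged LT-HSC. No aged library reached the young range, and the log2 change was -0.31 (SE 0.090, adjusted p = 0.018), a call that held under all 17 alternatives. Npc2, which encodes the soluble protein that hands cholesterol to NPC1, had a log2 change of -0.225 that did not pass the test (adjusted p = 0.36).

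Among autophagy genes in LT-HSC, the Atg8 genes Gabarapl1 and Map1lc3b, a receptor gene and initiation genes rose. Gabarapl1, an Atg8 gene (chromosome 6, 129533160 to 129542346), was at 150.1, 126, 143 and 146 CPM in young and 179, 197, 177 and 184 CPM in aged LT-HSC. The groups did not overlap, with a log2 change of 0.38 (SE 0.090, adjusted p = 0.0034). The sources used here do not say whether counts were separated by strand. A transcript of the opposite strand overlaps 28.3% of the annotated exon length of Gabarapl1, so part of its counts is uncertain. Nbr1, the gene of the cargo receptor NBR1, was at 159, 148, 151 and 162 CPM in young and 201, 181, 187 and 183 CPM in aged LT-HSC. These groups were separate too, and the log2 change was 0.28 (SE 0.079, adjusted p = 0.014). Map1lc3b, which encodes LC3B, changed by 0.26 (SE 0.085, adjusted p = 0.029). The 2 initiation genes were Ulk2, which encodes an ULK kinase (0.365 (SE 0.125, adjusted p = 0.041)), and Rb1cc1, which encodes its scaffold FIP200 (0.28 (SE 0.093, adjusted p = 0.035)). No gene of the conjugation system, the phosphatidylinositol 3-kinase complex or the WIPI pair passed the test in LT-HSC. Leaving out aged library 2 or 3 or young library 3 kept 8 of the 13 calls in LT-HSC, and leaving out aged library 1 or young library 2 or 4 kept 7. Lamp2, Mcoln1, Tpp1, Atp6v1a, Gabarapl1 and Npc1 were called in each of these. Of 17 alternatives, Ulk2, Rb1cc1 and Map1lc3b lost their call under 8, Gaa and Atp6v0d1 under 5, and Ctsl and Nbr1 under 3.

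**Figure D1:**
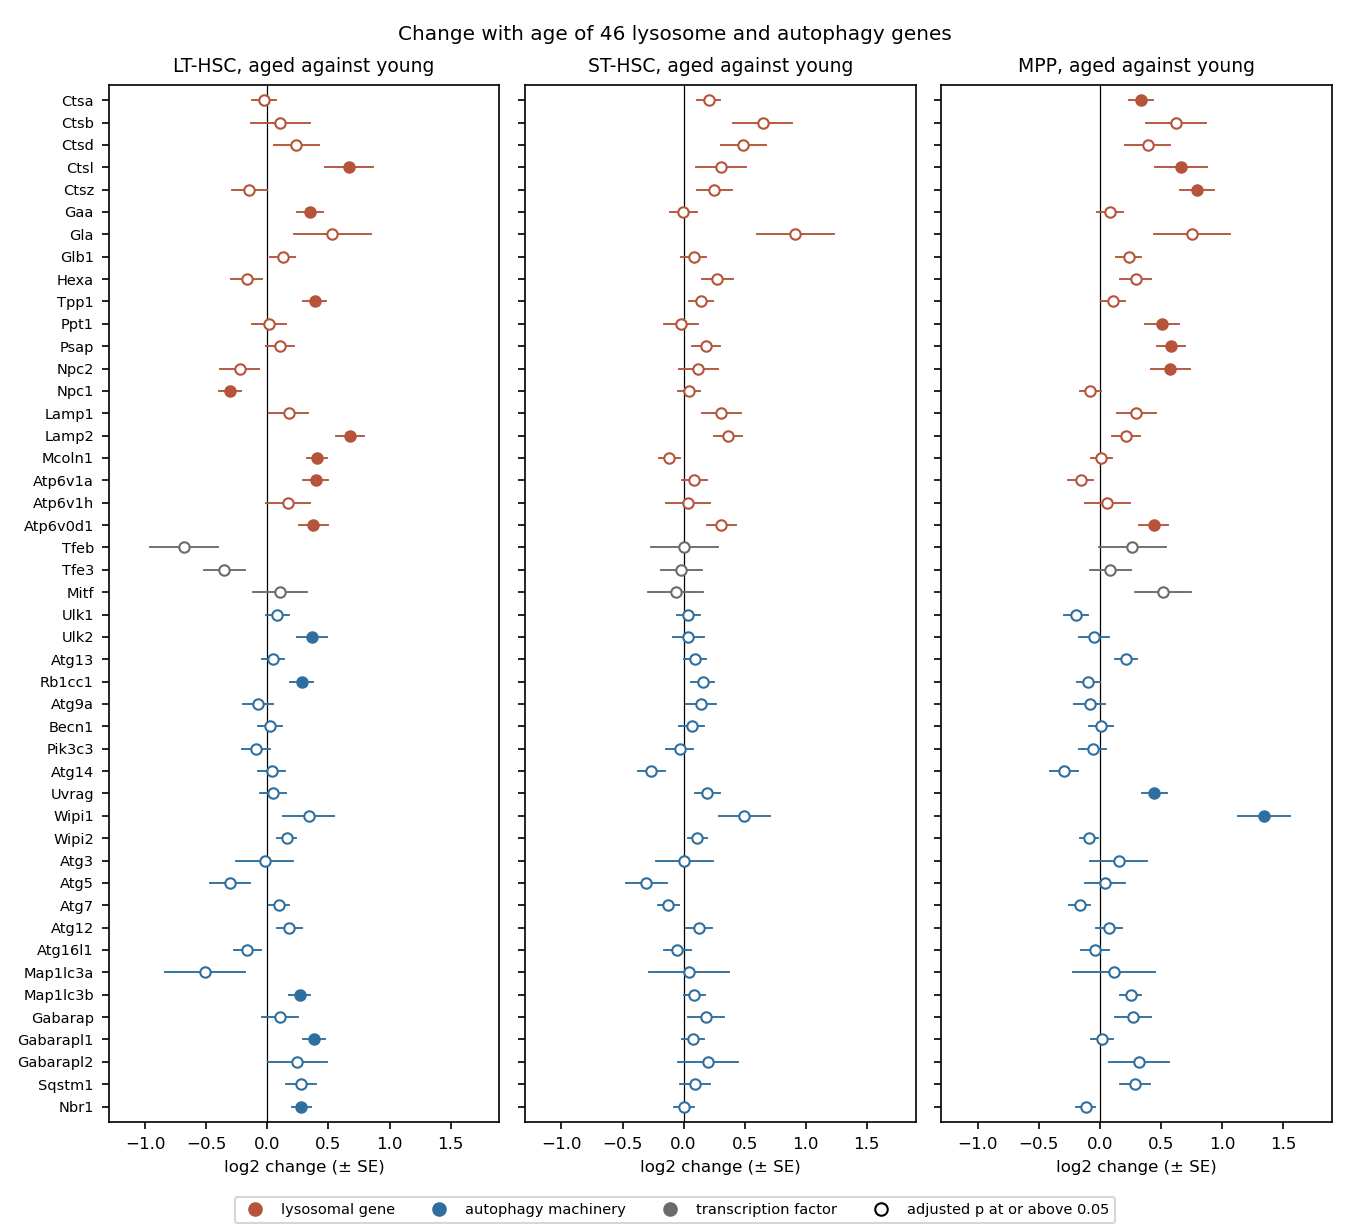
Log2 change with age (x axis, aged against young, ± SE) of each of the 46 genes (y axis) in LT-HSC, ST-HSC and MPP. Filled points passed an adjusted p of 0.05: 13 in LT-HSC, 0 in ST-HSC and 9 in MPP. Red points are lysosomal genes, blue points autophagy genes and grey points transcription factors.

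None of the 46 genes passed edgeR's test for age in ST-HSC, where 3.58% of all tested genes were called higher and 2.21% lower. An unadjusted p under 0.05 was reached by 9 of the 46. The share of all tested genes at that threshold was not counted, so this number has no background beside it. DESeq2 called 1, Lamp2, and limma-voom called 0. The log2 change was positive for 36 of the 46, with a median of 0.195 over the lysosomal genes, 0.076 over the autophagy genes and 0.01 over all tested genes. The share of positive changes among all tested genes is not given beside the 36, so it is not read as a result about these genes. Without aged library 2 the autophagy median was 0.12. Lamp2 was at 142, 136, 145 and 159 CPM in young and 155, 178, 204 and 213 CPM in aged ST-HSC. Aged library 1 overlapped the young range, and the log2 change of 0.36 had an adjusted p of 0.061.

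The aged ST-HSC libraries differed among themselves more than the young ones in the abundant cathepsin genes. Ctsb, the cysteine protease cathepsin B, was at 182, 187, 189.7 and 208 CPM in young and 179, 353, 216 and 451 CPM in aged ST-HSC. Ctsd was at 266, 309, 271 and 311 CPM in young and 299, 389, 323 and 612 CPM in aged ST-HSC. In both genes aged library 4 was the highest. Their log2 changes were 0.65 (adjusted p = 0.14) and 0.49 (adjusted p = 0.14). Library 4 was also the one with the highest monocyte and macrophage marker share of the group, 0.0834% against 0.0300% to 0.0638% in the other 3, with counts for 14 of 14 markers in aged ST-HSC and 12 of 14 above 1 CPM. The part of these markers in the result was not tested. Without that library the median over the lysosomal genes was 0.113. With it as the only library of its group, and with library 1 of young LT-HSC left out, the median was 0.36 and Ctsb, Ctsd, Psap and Lamp1 were called. The granulocyte share of the group was lowest in library 4, and its part in the result was not tested either.

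In MPP the age comparison called 9 of the 46 genes, all higher (19.6%), beside 5.53% higher and 4.27% lower among all tested genes. Of the called genes, 7 were lysosomal (of 20) and 2 were autophagy genes (of 23). The median log2 change was 0.317 over the lysosomal genes, 0.018 over the autophagy genes and -0.004 over all tested genes. All 11 hydrolases had a positive log2 change (median 0.39), and 4 of them passed the test. The share of positive changes among all tested genes is not given beside the count of 11.

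Among the hydrolases, Ctsz, the carboxypeptidase cathepsin X (chromosome 2, 174427493 to 174439039), was at 70.8, 51.1, 58.9 and 64.2 CPM in young and 92.2, 90.7, 104 and 139 CPM in aged MPP. No aged library fell within the young range, and the log2 change was 0.80 (SE 0.141, adjusted p = 0.0005). Ppt1, which encodes the thioesterase that removes palmitate from proteins, was at 61.9, 70.4, 58.7 and 60.5 CPM in young and 91.6, 77.2, 101 and 88.4 CPM in aged MPP. Its groups were separate, with a log2 change of 0.51 (SE 0.140, adjusted p = 0.018). Ctsa, the protective protein cathepsin A that stabilises beta-galactosidase, was at 141, 128, 121 and 151 CPM in young and 169, 162, 147 and 206 CPM in aged MPP. Aged library 3 overlapped the young range, and the change was 0.34 (SE 0.096, adjusted p = 0.023). Ctsl changed by 0.66 (SE 0.211, adjusted p = 0.044).

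The cofactor and pump genes called in MPP were Psap, Npc2 and Atp6v0d1. Psap (chromosome 10, 60277627 to 60302597) was at 531, 516, 509 and 517 CPM in young and 729, 679.7, 712 and 987 CPM in aged MPP. The groups were separate and aged library 4 was the highest, with a log2 change of 0.58 (SE 0.115, adjusted p = 0.0015). Npc2 was at 68.0, 45.5, 48.6 and 62.2 CPM in young and 73.2, 73.8, 72.1 and 116 CPM in aged MPP. Here 3 aged libraries lay close together just above the young range and library 4 lay apart, with a change of 0.58 (SE 0.157, adjusted p = 0.017). Atp6v0d1 was at 87.4, 82.5, 72.8 and 82.8 CPM in young and 95.0, 97.8, 101 and 148 CPM in aged MPP. The same library was the highest again, and the change was 0.44 (SE 0.119, adjusted p = 0.016).

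The autophagy genes called in MPP were Wipi1 and Uvrag. Wipi1 (chromosome 11, 109573331 to 109611967) encodes a phosphoinositide-binding protein of the forming autophagosome. It was at 8.96, 7.66, 6.82 and 8.07 CPM in young and 16.9, 22.8, 13.7 and 26.7 CPM in aged MPP. All aged libraries exceeded all young ones, and the log2 change of 1.34 (SE 0.213, adjusted p = 0.00013) was the largest among the 46 genes in any age comparison. Uvrag, which encodes a subunit of a form of the phosphatidylinositol 3-kinase complex that acts in membrane trafficking, was at 44.9, 41.1, 45.2 and 41.7 CPM in young and 54.9, 58.0, 59.5 and 63.0 CPM in aged MPP. Its 4 aged libraries were close together and above all young ones, with a change of 0.445 (SE 0.103, adjusted p = 0.0056). An antisense gene overlaps 17.6% of the exon length of Uvrag, so part of its counts is uncertain.

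Ctsl lost its MPP call under 12 of 17 alternatives, with adjusted p up to 0.18, Ctsa and Npc2 under 5, Atp6v0d1 under 4 and Ppt1 under 2, while Ctsz, Psap, Wipi1 and Uvrag held under all 17. Some of these calls rested on library 4 of aged MPP. Without it, 5 of the 9 genes were called: Ctsz, Ppt1, Psap, Uvrag and Wipi1. Without young MPP library 3, 4 were called: Ctsz, Psap, Uvrag and Wipi1. All 9 B and plasma cell markers had counts in aged and in young MPP, none being at 0 throughout either group, and 9 and 8 of them were above 1 CPM. Their share of counts was 0.899% in aged MPP library 4 and 0.195% to 0.354% in the other aged libraries. The monocyte and macrophage share was 0.0231% to 0.0349% in young and 0.0349% to 0.0917% in aged MPP, with counts for all 14 markers at both ages. The granulocyte share had a mean of 0.187% in young and 0.391% in aged MPP, with overlapping ranges and counts for all 12 markers. The 5 dendritic cell markers, among them Flt3, which also marks MPP, all had counts at both ages. Their share was 0.0613% to 0.07495% in young and 0.0839% to 0.09925% in aged MPP, without overlap. The part of these marker lists in the rise of the lysosomal genes was not tested.

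**Figure D2:**
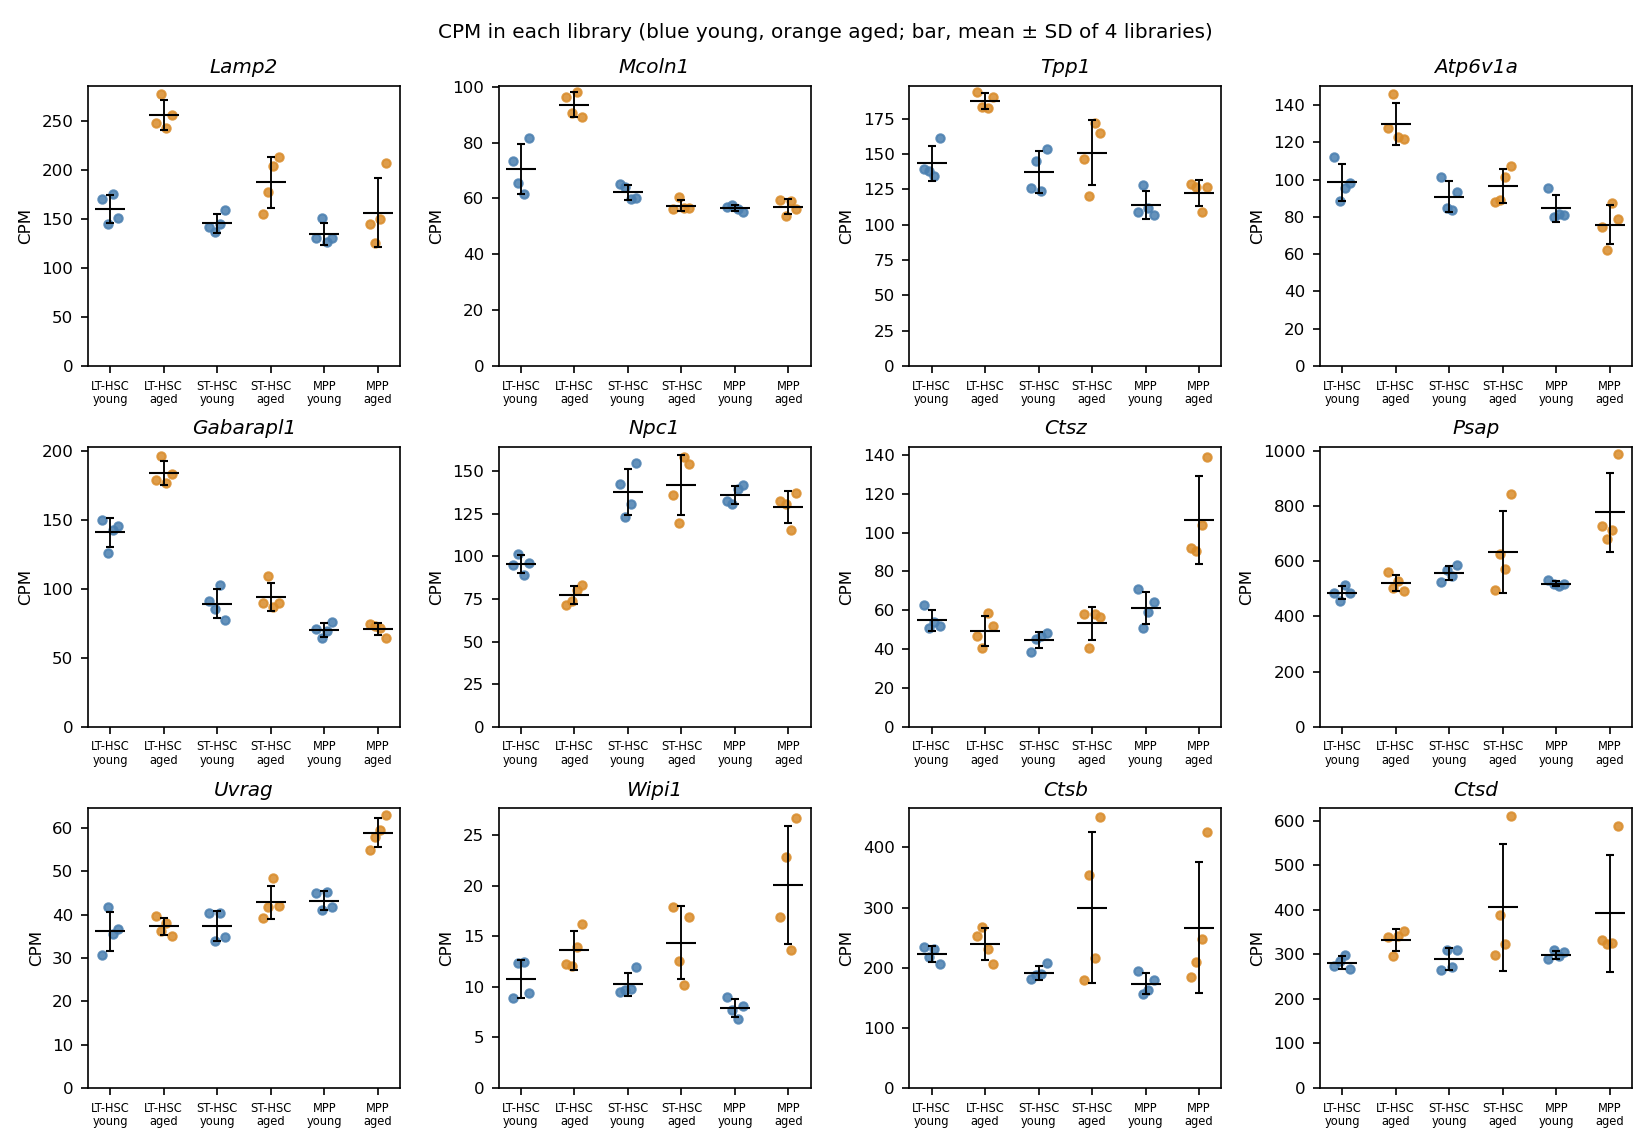
CPM (y axis) of 12 of the genes in each library of the 6 groups (x axis), with the mean and SD of 4 libraries as bars. In the top row and in Gabarapl1 aged LT-HSC is the highest group, in Npc1 it is the lowest, in Ctsz, Psap, Uvrag and Wipi1 aged MPP has the highest mean, and Ctsb and Ctsd spread most in aged ST-HSC and aged MPP.

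The summed level of the lysosomal genes and that of the autophagy genes differed in how they stood by age, least so in LT-HSC. The 20 lysosomal genes took 0.250% to 0.276% of counts in young and 0.284% to 0.304% in aged LT-HSC, 0.242% to 0.267% in young and 0.246% to 0.368% in aged ST-HSC, and 0.224% to 0.245% in young and 0.255% to 0.3705% in aged MPP. The young and aged ranges did not overlap in LT-HSC or in MPP and overlapped in ST-HSC. Such a sum weighs abundant genes most. From young to aged MPP the mean went from 518 to 777 CPM in Psap, from 299.6 to 393 CPM in Ctsd and from 173 to 267 CPM in Ctsb. The age test in MPP called Psap but not Ctsd or Ctsb. The 23 autophagy genes took 0.184% to 0.210% in young and 0.202% to 0.219% in aged LT-HSC. These ranges overlapped through young library 1 alone (0.210%), the other young LT-HSC libraries being at 0.184% to 0.193%. In MPP the autophagy genes took 0.157% to 0.172% in young and 0.156% to 0.166% in aged libraries, and these ranges overlapped. The ratio of the lysosomal to the autophagy sum was 1.70, 1.54, 1.78 and 2.24 in aged MPP libraries 1 to 4 and 1.38 to 1.52 in young MPP. In LT-HSC it was 1.36 to 1.41 in aged and 1.298 to 1.403 in young libraries. The highest ratios were those of aged MPP library 4 (2.24) and aged ST-HSC library 4 (1.86).

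**Figure D3:**
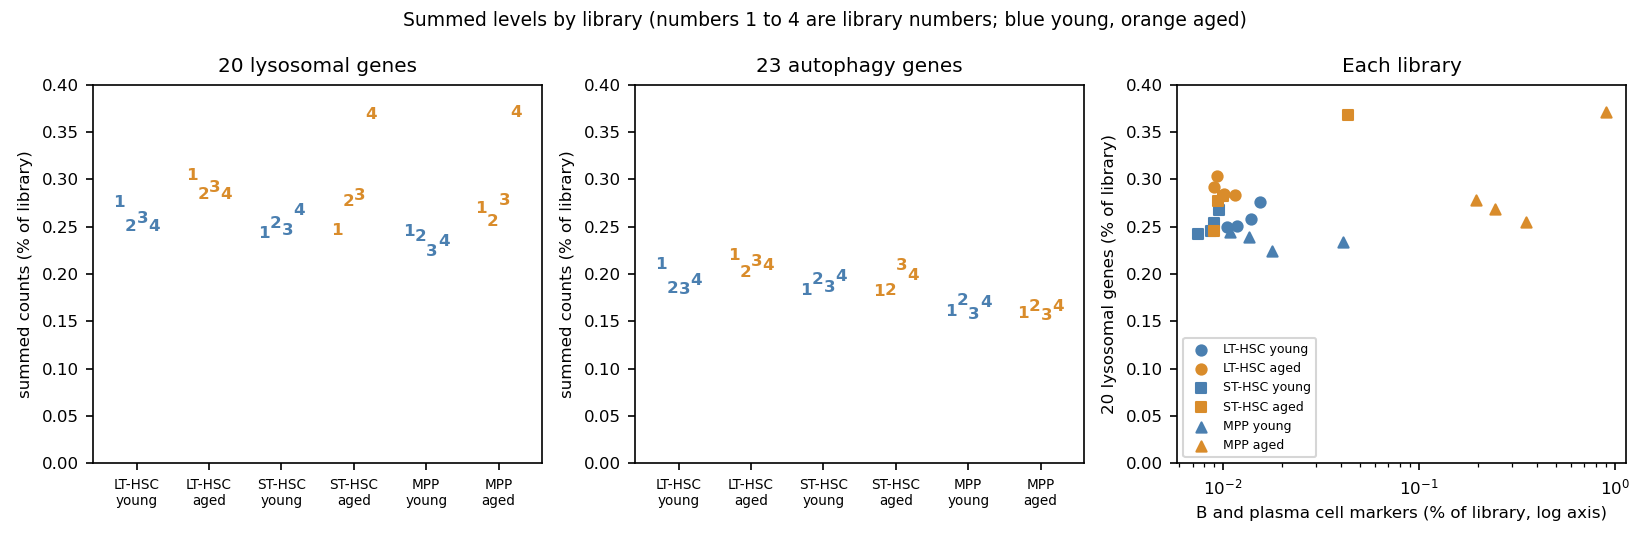
Summed counts of the 20 lysosomal genes (left) and the 23 autophagy genes (middle) as a percentage of all counts (y axis) in each library of the 6 groups, drawn as library numbers, and the lysosomal sum against the summed B and plasma cell marker share on a log axis (right). Library 4 of aged ST-HSC and of aged MPP stand highest in lysosomal genes at 0.368% and 0.3705%, while the autophagy sums stay between 0.156% and 0.219%.

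The difference between populations in their age effect was tested directly. Between LT-HSC and ST-HSC, 1 of the 46 genes passed, beside 4.05% of all tested genes: Mcoln1, which was 62.3 ± 2.67 CPM in young and 57.5 ± 2.00 CPM in aged ST-HSC (SD, n = 4), differed in age effect by 0.52 (SE 0.121, adjusted p = 0.012). Between LT-HSC and MPP, 6 passed, beside 9.93% of all tested genes. Mcoln1 (0.395, adjusted p = 0.035), Atp6v1a (0.55, adjusted p = 0.016) and Nbr1 (0.40, adjusted p = 0.025) had the larger age effect in LT-HSC. Ctsz (-0.945, adjusted p = 0.0029), Npc2 (-0.80, adjusted p = 0.022) and Wipi1 (-1.004, adjusted p = 0.03) had the larger one in MPP. The Ctsz difference held under all 25 alternatives tried for it. The Mcoln1 difference from ST-HSC was lost under 1 of 25, with aged ST-HSC library 4 alone (adjusted p = 0.095), and the Mcoln1 difference from MPP under 16 of 25. Wipi1 lost its call under 10, Nbr1 under 8 and Atp6v1a and Npc2 under 2. Without aged MPP library 4, 3 genes were called between LT-HSC and MPP: Ctsz, Atp6v1a and Lamp2. The count was also 3 without aged LT-HSC library 2 or young LT-HSC library 2 or 3, was 2 without young MPP library 2, and was 11 under either alternative that left out libraries for granulocyte genes. Between ST-HSC and MPP edgeR called 0 of the 46, beside 0.465% of all tested genes. There, 4 had an unadjusted p under 0.05, with the share of all tested genes at that threshold likewise not counted. DESeq2 and limma-voom also called 0.

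The populations differed from each other at each age, and comparisons within an age share libraries. In young mice, LT-HSC against ST-HSC called 3 of the 46 genes higher and 1 lower (6.79% and 5.74% of all genes), ST-HSC against MPP called 6 higher and 1 lower (10.5% and 10.1%), and LT-HSC against MPP called 10 higher and 1 lower (18.9% and 18.3%). In aged mice, LT-HSC against ST-HSC called 10 higher and 3 lower (16.2% and 16.1% of all genes), ST-HSC against MPP called 9 higher and 5 lower (15.5% and 14.4%), and LT-HSC against MPP called 15 higher and 10 lower (28.3% and 28.5%). Leaving out young MPP library 1 or young ST-HSC library 2 brought the 7 genes called between young ST-HSC and MPP to 3 or 4. Leaving out aged ST-HSC library 4 brought the 13 called between aged LT-HSC and ST-HSC to 8, and leaving out aged ST-HSC library 3 brought the 14 called between aged ST-HSC and MPP to 8. Without libraries 2 and 3 of aged ST-HSC and library 1 of young LT-HSC, Gaa was not called between young LT-HSC and ST-HSC (adjusted p = 0.1), Tpp1 was not called between the aged ones (adjusted p = 0.059), and Ctsa, Npc2, Wipi2, Atg7, Map1lc3b and Nbr1 were not called between aged ST-HSC and MPP (adjusted p from 0.059 to 0.46). With aged ST-HSC library 4 alone, 7 of the 13 calls between aged LT-HSC and ST-HSC and 10 of the 14 between aged ST-HSC and MPP were lost. In aged LT-HSC against aged MPP the called genes were 6 higher and 7 lower among the 20 lysosomal genes, and 8 higher and 3 lower among the 23 autophagy genes. The medians were -0.202 over the lysosomal genes and 0.172 over the autophagy genes, and without aged MPP library 4 the lysosomal median was 0.006. Several of these counts were near the share of all genes called, so they are given to place single genes.

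Gabarapl1 was highest in LT-HSC and lowest in MPP at both ages. In young mice its mean was 141 ± 10.4 CPM in LT-HSC, 89.4 ± 10.7 CPM in ST-HSC and 70.3 ± 4.97 CPM in MPP (SD, n = 4). In aged mice it was 184 ± 8.73, 94.4 ± 10.5 and 71.2 ± 4.39 CPM. LT-HSC exceeded MPP by 1.01 (SE 0.092, adjusted p = 1.7e-09) on the log2 scale in young mice and by 1.37 (SE 0.092, adjusted p = 1.5e-12) in aged mice, and the LT-HSC libraries did not overlap those of either other population. The young ST-HSC and young MPP libraries did not overlap either (0.35 (SE 0.092, adjusted p = 0.0079)).

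Other genes higher in LT-HSC came from several roles. Gaa was at 261, 218, 208 and 227 CPM in young LT-HSC and 128, 141, 141 and 139.6 CPM in young MPP, and at 342, 264, 302 and 256 and 150.1, 139, 142 and 150.2 CPM in the aged groups. The LT-HSC libraries were all above the MPP libraries, with log2 differences of 0.735 in young (adjusted p = 5e-06) and 1.00 in aged mice (adjusted p = 1.3e-08). Ctsl was higher in LT-HSC than in MPP by 1.31 in young and 1.32 in aged mice (adjusted p = 1.6e-05 and 3.8e-06). It had its highest mean in aged LT-HSC and its lowest in young MPP, 29.3 ± 6.33 and 7.41 ± 1.98 CPM. Part of the Ctsl counts is uncertain, because an antisense gene overlaps 26.8% of its exon length. Hexa, a subunit of the hexosaminidase that degrades gangliosides, was at 59.3, 50.2, 56.2 and 53.9 CPM in young LT-HSC and 39.9, 42.9, 37.1 and 34.1 CPM in young ST-HSC. The groups were separate, with a difference of 0.51 (SE 0.126, adjusted p = 0.0057), and the aged comparison of these populations was not called for Hexa (0.07, adjusted p = 0.73).

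The initiation genes Ulk1 and Rb1cc1 followed the same order as Gabarapl1. Ulk1, the main ULK kinase, was at 274, 211, 255 and 263 CPM in aged LT-HSC, 231, 184, 232 and 219 CPM in aged ST-HSC and 157, 168, 128 and 145 CPM in aged MPP. LT-HSC and ST-HSC overlapped each other and both lay above MPP, with a difference from ST-HSC to MPP of 0.535 (SE 0.096, adjusted p = 0.00013). Rb1cc1 was at 169.5, 158, 151 and 152 CPM in aged LT-HSC, 111, 147, 145 and 120.2 CPM in aged ST-HSC and 96.0, 99.9, 90.0 and 89.2 CPM in aged MPP. The 3 groups did not overlap, with a difference from LT-HSC to MPP of 0.75 (SE 0.094, adjusted p = 1.5e-07). In young mice LT-HSC exceeded MPP by 0.47 in Ulk1 and 0.375 in Rb1cc1 (adjusted p = 0.00036 and 0.0024). Mcoln1 and Atp6v1a stood out in aged LT-HSC, by 0.715 and 0.78 over aged MPP (adjusted p = 6.8e-08 and 4.8e-07).

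Npc1 led the genes lower in LT-HSC than in ST-HSC. It had a mean of 138 ± 13.6 CPM in young ST-HSC, 136 ± 5.24 in young MPP, 142 ± 17.8 in aged ST-HSC and 129 ± 9.5 in aged MPP, against 95.5 ± 5.13 and 77.2 ± 5.38 CPM in young and aged LT-HSC (SD, n = 4). The ST-HSC and MPP libraries overlapped at both ages, while LT-HSC lay below ST-HSC, with log2 differences of -0.53 (SE 0.090, adjusted p = 0.00011) in young and -0.88 (SE 0.090, adjusted p = 1.8e-08) in aged mice. In aged mice Ctsz, Npc2, Uvrag and Psap were lower in LT-HSC than in MPP, with log2 differences of -1.11, -1.05, -0.66 and -0.58, with adjusted p-values from 2.4e-07 to 0.00013. Atg16l1, whose product holds the conjugation complex on the membrane, was at 37.6, 46.5, 43.4 and 41.5 CPM in aged LT-HSC and 55.2, 52.5, 48.3 and 55.4 CPM in aged ST-HSC. The groups did not overlap, with a difference of -0.32 (SE 0.114, adjusted p = 0.03), and the call was lost under 7 of 17 alternatives. Ctsz was also lower in ST-HSC than in MPP, with log2 differences of -0.45 in young and -0.997 in aged mice (adjusted p = 0.025 and 6.6e-06).

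**Figure D4:**
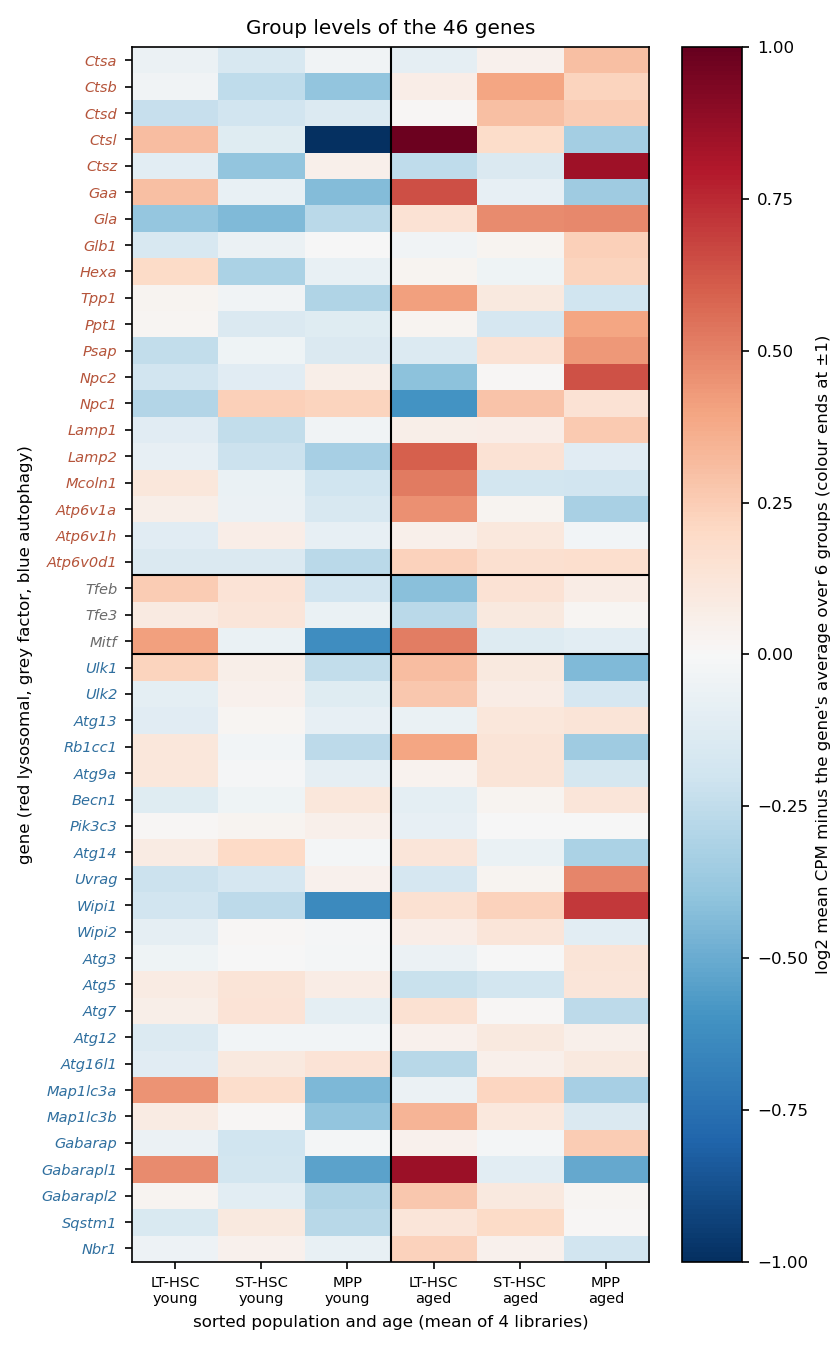
Mean CPM of each gene (y axis) in the 6 groups (x axis) on a log2 scale, relative to the gene's own average over the groups. Gabarapl1, Gaa, Ctsl and Rb1cc1 are highest in LT-HSC at both ages, Npc1 is lowest there, and Ctsz, Npc2, Uvrag and Wipi1 are highest in aged MPP.

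The 5 Atg8 genes differed in how they varied. Map1lc3b was at 113, 119, 112 and 115 CPM in young ST-HSC and 92.3, 86.7, 80.2 and 86.5 CPM in young MPP. The 2 groups were separate, with a difference of 0.405 (SE 0.086, adjusted p = 0.0012). Gabarap had group means from 61.1 ± 8.51 to 83.6 ± 24.9 CPM, and no comparison called it. Gabarapl2 and Map1lc3a were low, with group means of 6.96 to 10.3 CPM and 3.50 to 6.54 CPM. Map1lc3a was called once, higher in young LT-HSC than in young MPP (0.90 (SE 0.333, adjusted p = 0.035)), and that call was lost under 7 of 17 alternatives. For Gabarapl2 and Map1lc3b, 17.0% and 9.40% of the 50-base stretches of their transcripts also occur in other genes, mainly processed copies, so reads could be shared.

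The transcription factor genes were not called in any age comparison. Tfeb was at 4.63, 12.1, 12.8 and 11.5 CPM in young and 8.71, 4.27, 6.5 and 6.22 CPM in aged LT-HSC. The young library 1 was the lowest of its group and fell within the aged range, and the log2 change was -0.68 (adjusted p = 0.085). Without young library 1, and likewise without aged library 1, Tfeb was called lower. Tfe3 was at 25.8 ± 3.11 CPM in young and 20.1 ± 3.39 CPM in aged LT-HSC, with a change of -0.35 (adjusted p = 0.15). Its group means ran from 20.1 to 26.5 CPM. Mitf differed between populations: it was at 27.3, 18.1, 34.1 and 21.3 CPM in young LT-HSC and 11.1, 13.7, 12.8 and 11.8 CPM in young MPP. These libraries did not overlap, with a difference of 1.03 (SE 0.229, adjusted p = 0.0008), and in aged mice LT-HSC exceeded MPP by 0.62 and ST-HSC by 0.64 (adjusted p = 0.02 and 0.029).

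Of the 46 genes, 20 were called in at least 1 age comparison, 29 in at least 1 population comparison and 16 in none of the 12 comparisons. The matching shares of all tested genes were not counted, so these numbers have no background beside them. In aged LT-HSC against aged MPP alone, 28.3% of all tested genes were called higher and 28.5% lower. The 16 were the hydrolase genes Ctsb, Ctsd and Gla, the membrane protein gene Lamp1, the pump gene Atp6v1h, Tfeb, Tfe3, the initiation genes Atg13 and Atg9a, Becn1 and Pik3c3 of the phosphatidylinositol 3-kinase complex, the conjugation genes Atg3, Atg5 and Atg12, Gabarap and Gabarapl2. Pik3c3, the catalytic subunit, was among the most even, with group means from 48.0 ± 1.67 to 52.6 ± 7.23 CPM (SD, n = 4). Atg3, the E2-like enzyme of Atg8 conjugation, had group means of 13.9 to 15.9 CPM, and Atg7, the E1-like enzyme, of 88.0 to 117 CPM. Gla, the alpha-galactosidase A gene, had positive changes of 0.53, 0.915 and 0.75 in LT-HSC, ST-HSC and MPP (adjusted p = 0.26, 0.087 and 0.13). Becn1, Ctsd and Atg9a overlap other annotated genes over 43.9%, 34.4% and 31.8% of their exon length, so their counts are uncertain. Lesser overlaps bear on other genes: 17.3% for Sqstm1, 12.8% for Ctsb, 12.8% for Hexa and 10.5% for Ctsa. For Rb1cc1, 12.0% of the 50-base stretches of its transcript also occur in other genes. Sqstm1 was called once, higher in young ST-HSC than in young MPP (0.375 (SE 0.123, adjusted p = 0.03)), and Wipi2, the WIPI protein that recruits the conjugation complex, once in aged ST-HSC against aged MPP (0.225 (SE 0.074, adjusted p = 0.023)). These calls were lost under 5 and 9 of 17 alternatives.

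The wider pathway was counted in 123 further genes of the lysosome, the V-ATPase, nutrient sensing at the lysosome and autophagy, of which 119 were tested. In LT-HSC 15 rose and 11 fell with age (12.6% and 9.24%, beside 9.98% and 8.87% of all tested genes). In ST-HSC 6 were called and all rose (5.04%, beside 3.58%). In MPP 13 rose and 3 fell (10.9% and 2.52%, beside 5.53% and 4.27%). The LT-HSC and ST-HSC shares were near those of all genes. The genes of smallest p that rose in LT-HSC included Tax1bp1, an autophagy receptor gene (log2 change 0.49, adjusted p = 7.8e-05), Ctso, a cathepsin gene (0.63, adjusted p = 0.00043), and Sesn1, which encodes a sestrin of amino acid sensing (0.43, adjusted p = 0.0015). Those that fell included Gm2a, the ganglioside activator protein gene (-0.545, adjusted p = 2.3e-05), Man2b1, the acid alpha-mannosidase gene (-0.61, adjusted p = 8.8e-05), and Atp6v0b, a V-ATPase membrane subunit gene (-0.63, adjusted p = 9.4e-05). Thus other pump subunits did not all follow Atp6v1a and Atp6v0d1 in LT-HSC: 3 of 13 tested rose and 3 fell. In ST-HSC the leading genes included Gnptab, whose product helps make the mannose phosphate tag of hydrolases (0.35, adjusted p = 0.0018), and Tax1bp1 (0.40, adjusted p = 0.0026). In MPP they were Atp6v0a1, another V-ATPase membrane subunit gene (1.28, adjusted p = 2.9e-05), Ctss, the cathepsin S gene of antigen-presenting cells (2.35, adjusted p = 0.00013), and Gm2a (0.41, adjusted p = 0.0011). The B and plasma cell marker share was also higher in aged MPP, and its part in these changes was not tested. Gm2a and Man2b1 thus fell in LT-HSC and rose in MPP (Man2b1 0.43, adjusted p = 0.0056), and the age effect in LT-HSC minus that in MPP was -0.96 for Gm2a (adjusted p = 3.6e-06) and -1.05 for Man2b1 (adjusted p = 2.2e-05). The genes that fell in MPP were Sesn3, a stress-induced regulator of nutrient sensing (-0.64, adjusted p = 0.007), Igf2r, a receptor that carries tagged hydrolases to lysosomes (-0.77, adjusted p = 0.024), and Atg4d, a protease that processes Atg8 proteins (-0.44, adjusted p = 0.038).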

How the data were processed

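RNA was measured by bulk RNA-seq in 24 libraries, 4 in each of 6 groups of age and sorted population. The authors deposited 1 table of whole-number read counts per gene. Trimming with Trim Galore, alignment with HISAT2 to mm10 and counting with featureCounts are named in the submitters' processing notes, with versions, annotation and strand setting not given in the sources used here. Per the labels' protocols, first strands were primed with not-so-random primers and libraries made with Nextera XT. With the strand setting unknown, counts of overlapping genes are uncertain, as are those of duplicated genes. Counting without molecular identifiers keeps amplified copies.

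The counts were analysed in R 4.3.3 with edgeR 4.0.16: filterByExpr kept 14205 of 24421 rows, holding 99.92% of counts, library sizes were scaled by TMM, and the robust quasi-likelihood test was fitted to all 24 libraries with 1 mean per group and 18 residual degrees of freedom. p-values were two-sided and Benjamini-Hochberg adjusted over all tested genes with a threshold of 0.05. The standard error was the log2 change divided by the square root of its F. CPM are edgeR values with TMM-scaled library sizes, and summed shares are percent of all counts. The fit was tested on simulated data. Totals of 7307151 to 12946550 counts limit precision mostly for genes of few CPM.

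Group labels came from the titles. Across same-numbered libraries of 1 age, correlations of deviations from the group means ran from -0.058 to 0.177 (median 0.044), over 0.1 in 6 of 24 pairs. Across differently numbered libraries of 1 age the median was -0.016, over 0.1 in 4 of 72 pairs. These values do not settle whether equal numbers are the same mouse, and the labels do not say. The main fit therefore took the libraries as unpaired, with a replicate block as an alternative. No 2 columns were identical. Exon lengths and overlaps came from GENCODE (GRCm38, the assembly of mm10) and promoter windows from RefSeq, without those of chromosome 18. The alternatives were DESeq2 1.42.0, limma-voom (limma 3.58.1), RLE factors, no filter, only the compared groups, a replicate block, each library left out, 3 libraries left out and, chosen after seeing the data, library 4 of aged ST-HSC and of aged MPP left out together, and young LT-HSC library 1 with aged ST-HSC libraries 1, 2 and 3 left out. The members and lists were chosen with earlier results of these data known. Genes were named by rule: up to 8 of smallest p per age comparison, up to 4 each way per population comparison, up to 4 per difference of age effects, the highest and lowest of each role, the 3 factors, the 5 Atg8 genes and, in the wider pathway, up to 3 each way per age comparison. A gene that this rule names in the wider pathway is not reported here.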

Additional observations from a re-analysis of the deposited data

Results flagged for a closer look

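Among 234 groups of 4 libraries examined (37 genes and 2 summed shares in 6 groups), 21 held a library set apart from the other 3 by Dixon's ratio, where chance sets apart about 1 in 20. Library 4 of aged MPP was the highest in Ctsd (589 CPM, the next 333), Psap (987, the next 729), Npc2 (116, the next 73.8), Atp6v0d1 (148, the next 101) and Gabarap (121, the next 75.1), and the lowest in Pik3c3 (44.7, the next 51.7). In other aged MPP libraries, Tpp1 was low in library 3 (109 CPM) and Nbr1 high in library 2 (155). In aged ST-HSC, library 2 was low in Ctsz (40.6 CPM) and high in Mcoln1 (60.4) and Gabarapl1 (110), and library 3 was high in Atg7 (123). In aged LT-HSC, Map1lc3a was high in library 3 (6.00 CPM) and Map1lc3b low in library 4 (132). In young LT-HSC, library 1 was low in Tfeb (4.63 CPM) and high in Rb1cc1 (148), and library 2 was low in Map1lc3b (111). In young MPP, library 1 was low in Gaa (128 CPM) and high in Atp6v1a (95.5), and library 2 was high in Lamp2 (151). Wipi1 was high in young ST-HSC library 4 (11.9 CPM).

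The age effect differed between populations, by edgeR's test of the difference itself, in 7 cases. It was larger in LT-HSC than in ST-HSC for Mcoln1 by 0.52 on the log2 scale, and larger in LT-HSC than in MPP for Mcoln1 by 0.395, Atp6v1a by 0.55 and Nbr1 by 0.40. The LT-HSC age effect minus that of MPP was -0.945 for Ctsz, -0.80 for Npc2 and -1.004 for Wipi1.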

How the results depend on the processing

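No called gene changed direction under any alternative tried for it. The lysosomal median for aged LT-HSC against MPP (-0.202) rose to just above 0 without aged MPP library 4, and the autophagy median for age in MPP (0.018) reached -0.004 without aged MPP library 1. The medians for young LT-HSC against MPP, 0.051 (lysosomal) and 0.025 (autophagy), were -0.001 and -0.011 without libraries 2 and 3 of aged ST-HSC and library 1 of young LT-HSC. No scaling moved the median of all genes by over 0.1. Without 1 library at a time, genes called ran from 7 to 14 for age in LT-HSC, 0 to 2 in ST-HSC and 4 to 11 in MPP. They ran from 3 to 9 for young ST-HSC against MPP, 8 to 14 for aged LT-HSC against ST-HSC, 8 to 15 for aged ST-HSC against MPP, 1 to 2 for the LT-HSC minus ST-HSC age effect and 2 to 9 for LT-HSC minus MPP. Fitted on the compared groups alone, MPP age called 5 genes and aged ST-HSC against MPP called 8. DESeq2 called 1 gene for age in ST-HSC. Without libraries 2 and 3 of aged ST-HSC and library 1 of young LT-HSC, the counts were 8 for aged ST-HSC against MPP, 2 for LT-HSC minus ST-HSC and 11 for LT-HSC minus MPP, and the lysosomal median for age in ST-HSC was 0.287. Without aged ST-HSC library 1 as well, the counts were 4 for age in ST-HSC, 5 for aged ST-HSC against MPP, 0 for LT-HSC minus ST-HSC and 11 for LT-HSC minus MPP, and that median was 0.36, with aged ST-HSC represented by 1 library and 15425 genes past the filter. Without library 4 of aged ST-HSC and aged MPP together, age called 1 gene in ST-HSC (Atp6v0d1) and 5 in MPP, and the lysosomal medians were 0.112 for age in ST-HSC and 0.003 for aged LT-HSC against MPP. Without 1 library at a time, the lysosomal median ran from 0.113 to 0.247 for age in ST-HSC and from -0.279 to 0.006 for aged LT-HSC against MPP, and the autophagy median from 0.102 to 0.182 for the latter, 0.045 to 0.105 for age in LT-HSC and 0.071 to 0.12 in ST-HSC. The cause of these shifts was not tested. With the replicate block the counts were 13 for age in LT-HSC, 0 in ST-HSC, 8 in MPP, 17 for aged ST-HSC against MPP and 8 for LT-HSC minus MPP. The block moved no count by over 1.5 times. Of 74 calls between populations, 42 held under every alternative. Depth limits mainly genes of few counts such as Map1lc3a and Tfeb.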

Other observations

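Lysosomal genes spread more between aged ST-HSC and aged MPP libraries than between the others. The median coefficient of variation over the 20 lysosomal genes was 15.6% in aged ST-HSC and 16.3% in aged MPP, and 9.51%, 9.42%, 8.67% and 8.61% in young LT-HSC, aged LT-HSC, young ST-HSC and young MPP. Over the 23 autophagy genes it was 5.92% to 10.7% in all 6 groups, lowest in aged LT-HSC.

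The makeup of the Atg8 genes differed by population. Of the summed CPM per kb of the 5 genes, Gabarapl1 took 53.2%, 44.1% and 38.8% in LT-HSC, ST-HSC and MPP of young mice, and 57.8%, 42.9% and 34.9% in those of aged mice. Gabarap took 27.7%, 32.9% and 41.8% in the young groups and 24.8%, 34.3% and 44.7% in the aged ones. These are shares of mean levels in annotated exon length, and the overlap of Gabarapl1 with an opposite-strand transcript bears on them.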
